A study of Mus musculus with 6 samples.

Results

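The genes described here are 9 genes of de novo lipogenesis and its control by the carbohydrate response element binding protein ChREBP: Acly, Acss2, Acaca, Acacb, Fasn, Me1, Thrsp, Mlxipl and Pnpla3. They were chosen by symbol, each matched to 1 Ensembl gene, and make up 9 of the 53715 genes in the deposited count table. The table holds polyadenylated RNA counts from livers of 8-week-old F1 males of ICR, an outbred mouse stock, with 3 libraries labelled control F1 and 3 labelled FR F1. The labels leave FR unexplained and give the stress of the FR F1 group as famine of the father, whereas the title of the series names an overdiet, and the groups are therefore called as labelled. Strain, sex, tissue and age are the same in both groups. The sources used here do not give the diet of the F1 males, their feeding state or the hour of collection. They also do not say whether each library is 1 animal, so p-values here cover no more than the spread among the 6 samples, which may be technical.

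De novo lipogenesis makes fatty acids in the cytosol from acetyl-CoA. Acetyl-CoA comes from citrate through ATP citrate lyase (Acly) or from acetate through acetyl-CoA synthetase (Acss2), acetyl-CoA carboxylase turns it into malonyl-CoA, and fatty acid synthase builds palmitate with NADPH from malic enzyme and the pentose phosphate pathway. In liver, carbohydrate feeding raises transcription of these enzymes through ChREBP, encoded by Mlxipl, which responds to sugar metabolites, and through SREBP-1c, a product of Srebf1, which responds to insulin.

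In these libraries 0 of the 8 members with enough counts to be tested passed the threshold between FR F1 and control F1 (an adjusted p under 0.05 over 13022 genes, from edgeR's quasi-likelihood test with Benjamini-Hochberg adjustment), where 0.837% of all tested genes were called, 0.392% higher and 0.445% lower in FR F1. Thrsp, a small nuclear protein gene that accompanies lipogenesis, came nearest, with a fitted level 2.57-fold lower in FR F1 (adjusted p = 0.0910), and was followed by Me1, the cytosolic malic enzyme gene, 1.58-fold higher (adjusted p = 0.119). Acaca, the main hepatic acetyl-CoA carboxylase gene, was 1.43-fold lower (adjusted p = 0.222). In Acly, Acss2, Fasn, Acacb and Mlxipl the groups overlapped. Pnpla3 had 12 counts in all and was not tested. Without adjustment 3 of the 8 had a p under 0.05, against 17.9% of all tested genes. DESeq2 called 1 (Thrsp), against 423 of 15359 genes, and limma-voom 0, against 103 of 13022. In the same 3 members the libraries of the groups did not overlap, against 25.7% of all tested genes, FR F1 lying above in Me1 (12.5% of all genes) and below in Thrsp and Acaca (13.2%). The median log2 fold change of the 8 was -0.03, against 0.00 over all genes tested.

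The promoter windows of these genes are shown because ChREBP and SREBP-1c act on lipogenic genes through short DNA elements. RefSeq windows on GRCm38.p6, 250 bases before each start, exist for all 9 genes, 11 windows in number. Both strands were searched for the E-box (CACGTG) and for a loose form of the carbohydrate response element (ChoRE), the paired E-box that ChREBP binds. The other patterns were a sterol response element core (CACCNCAC), the CCAAT box, the GC box (GGGCGG) and the TATA box (TATAAA). The searched E-box and the paired form can overlap each other. Among all 32851 RefSeq windows of that length, 6.02% held the E-box, 0.280% the paired form and 5.37% the sterol element core, while 33.8% held CCAAT, 32.7% GGGCGG and 12.4% TATAAA. Among the 11 windows 1 held an E-box, 0 the paired form and 0 the sterol element core, which says only that these letters do not occur in those windows. A match is a description of letters and no binding was measured. The windows of Fasn and of Mlxipl at its 5′ end are given whole, as the synthase with 3 CCAAT boxes and as the window with the E-box, and that of Me1 up to the first base GENCODE has in an exon. The capitals mark the matches:
Fasn, chr11:120824548-120824797, minus strand: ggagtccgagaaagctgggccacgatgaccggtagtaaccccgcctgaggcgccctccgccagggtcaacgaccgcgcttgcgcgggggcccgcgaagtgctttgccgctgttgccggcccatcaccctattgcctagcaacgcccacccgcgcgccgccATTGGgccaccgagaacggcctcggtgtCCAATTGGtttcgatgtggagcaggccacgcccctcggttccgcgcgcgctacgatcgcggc
Mlxipl, chr5:135089640-135089889, plus strand: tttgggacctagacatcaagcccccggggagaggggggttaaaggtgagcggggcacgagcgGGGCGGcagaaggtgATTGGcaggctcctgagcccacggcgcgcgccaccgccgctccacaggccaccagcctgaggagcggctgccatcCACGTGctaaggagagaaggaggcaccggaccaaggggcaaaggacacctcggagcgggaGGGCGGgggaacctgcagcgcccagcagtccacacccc
Me1, chr9:86695954-86696164, minus strand: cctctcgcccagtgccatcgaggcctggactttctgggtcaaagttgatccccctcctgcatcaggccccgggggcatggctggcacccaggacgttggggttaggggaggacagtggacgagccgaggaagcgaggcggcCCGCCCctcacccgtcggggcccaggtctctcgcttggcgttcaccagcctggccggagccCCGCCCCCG

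The Fasn window had CCAAT boxes ending 86, 58 and 55 bases before the start, and the last 2 overlap. In the Mlxipl window the E-box began 98 bases before the start. Me1 had 3 GC boxes (GGGCGG) and no CCAAT, and the third runs past the printed end. The Thrsp window lies for 180 of its 250 bases within a GENCODE exon, so only its 2 CCAAT matches are given, on the minus strand of chromosome 7, beginning 79 and 52 bases before the RefSeq start, each with 5 bases on either side:
Thrsp, chr7:97417620-97417634: ctgggATTGGctcaa
Thrsp, chr7:97417593-97417607: ttgctCCAATggttg
CCAAT also occurred in the windows of Acacb, Acss2 and Pnpla3, in the Mlxipl window above and in a second Me1 window. GC boxes also occurred in those of Acly, Acss2 and Pnpla3 and in the Mlxipl window above. Thrsp and Me1, the members with the largest fold changes, thus shared no pattern when the Me1 window printed above was used. The second Me1 window held CCAAT, as did that of Thrsp. The Acaca window, which had 0 matches to any pattern, lies before a RefSeq start 65766 bases inside the GENCODE gene. That of Acacb lies before a RefSeq start 18983 bases inside, so neither window represents the far upstream start.

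Library totals ranged from 2279755 to 2730160 counts. Mitochondrially encoded genes took 0.101% of the counts of control F1 replicate 3 and 0.282% to 0.352% of the others. Hepatocyte markers were detected in every library, with all 10 tested and a summed level of 5756 to 7129 CPM. CPM are counts of a library relative to its total after TMM scaling, which adjusts totals for composition. Flattening of abundant genes was not tested, so the marker sums describe the counts as deposited and may not give the composition of the RNA. The 10 adipocyte markers, of another lipogenic cell type, summed to 809 to 851 CPM in control F1, against 751 to 823 in FR F1. Of the 5 tested, 2 had positive and 3 negative log2 fold changes and 0 passed, and Car3 and Adrb3 made up most of that sum. Fabp4, which is also an endothelial gene, had 29, 10 and 17 counts in control F1 and 55, 54 and 43 in FR F1. Among the defining markers Adipoq had 0 counts in each control F1 library and 3, 1 and 2 in FR F1, and Lep, Plin1 and Retn had at most 2 in any library. The 10 sinusoidal endothelial markers summed to 456 to 687 CPM in control F1, against 812 to 948 in FR F1, and the 10 stellate cell and fibroblast markers to 248 to 374 and 507 to 738 CPM, with positive log2 fold changes in all 10 of each. The 10 Kupffer cell and macrophage markers, also all positive, summed to 336 to 651 and 432 to 842 CPM, B and plasma cell markers to 39.2 to 75.6 and 85.5 to 172 CPM, and cholangiocyte markers to 42.8 to 137 and 71.0 to 94.0 CPM. Whether these shares contribute to the values of the lipogenic genes was not tested, and in whole liver fewer cells of a type and less RNA per cell cannot be told apart.

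Acly (ENSMUSG00000020917.17, chromosome 11, 100476353 to 100528000 on mm10) and Acss2 (ENSMUSG00000027605.18, chromosome 2, 155517948 to 155585724) supply cytosolic acetyl-CoA. Acly had 238, 174 and 228 CPM in control F1 replicates 1, 2 and 3 and 224, 185 and 214 CPM in FR F1. All FR F1 values lay within the control range. The log2 fold change was -0.04 ± 0.15 (SE, adjusted p = 0.897), and the 95% interval of the fold ran from 0.765 to 1.23. Acss2 had 219, 231 and 250 CPM in control F1, against 271, 207 and 213 in FR F1, so that its highest and 2 lowest values were all FR F1. Its log2 fold change was -0.02 ± 0.14 (adjusted p = 0.951), with an interval of the fold from 0.794 to 1.23. Of its 10163 exonic base pairs, Acss2 shares 395 with Gss, 335 with Acss2os and 197 with Ggt7 on the other strand. No source used here says whether counting was by strand, so reads from that overlap cannot be assigned to either gene.

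Acaca (ENSMUSG00000020532.18, chromosome 11, 84129672 to 84401651) encodes the cytosolic acetyl-CoA carboxylase that feeds synthesis, and Acacb (ENSMUSG00000042010.16, chromosome 5, 114146535 to 114250761) the mitochondria-associated form whose malonyl-CoA restrains fatty acid import. Acaca had 147, 165 and 185 CPM in control F1, against 139, 87.3 and 122 in FR F1. Every FR F1 library lay below every control library, with FR F1 replicate 1 close to control F1 replicate 1. The means were 166 ± 19.2 and 116 ± 26.4 CPM (SD, n = 3 in each), and the log2 fold change was -0.51 ± 0.19 (adjusted p = 0.222). The value moved to -0.34 without FR F1 replicate 2. Acacb had 125, 90.6 and 90.1 CPM in control F1, against 102, 72.2 and 152 in FR F1, which held both the lowest and the highest value. Its log2 fold change was 0.09 ± 0.27 (adjusted p = 0.877) with an interval of the fold from 0.689 to 1.65, and it was -0.22 without FR F1 replicate 3.

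Fasn (ENSMUSG00000025153.9, chromosome 11, 120805846 to 120824547) encodes fatty acid synthase. Its levels were 318, 370 and 537 CPM in control F1, against 384, 209 and 428 in FR F1. The highest library was control F1 replicate 3 and the lowest FR F1 replicate 2, and the other 4 lay between 318 and 428 CPM with the groups mixed. The means were 408 ± 114 and 340 ± 116 CPM (SD, n = 3 in each), and the log2 fold change of -0.26 ± 0.28 (adjusted p = 0.632) had an interval of the fold from 0.530 to 1.31. Without control F1 replicate 3 it was -0.02, and without FR F1 replicate 2 it was -0.01, so either library carries nearly all of the difference between the means.

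Me1 (ENSMUSG00000032418.15, chromosome 9, 86581371 to 86695953) encodes the malic enzyme that turns malate into pyruvate and yields NADPH for fatty acid synthase. Its levels were 156, 162 and 113 CPM in control F1, against 209, 216 and 256 in FR F1. The 3 FR F1 libraries were the highest of the 6, and control F1 replicate 3 was the lowest. The means were 144 ± 26.7 and 227 ± 25.6 CPM (SD, n = 3 in each), and the log2 fold change was 0.66 ± 0.17 (adjusted p = 0.119), with an interval of the fold from 1.21 to 2.06. The fold change was positive under all 16 other settings of the fit, between 0.51 and 0.75, and its adjusted p lay between 0.00498 and 0.300. It passed only with no filter on low counts. Me1 and Thrsp are classical thyroid hormone responsive genes of liver, and any part of thyroid hormone in their values was not tested. The receptor gene Thra had a log2 fold change of -0.32 ± 0.16 (adjusted p = 0.328), and Thrb had 0.18 ± 0.19 (adjusted p = 0.640). The deiodinase gene Dio1 had -0.62 ± 0.58 (adjusted p = 0.582), with widely spread levels of 22.1, 162 and 85.8 CPM in FR F1.

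Thrsp (ENSMUSG00000035686.8, chromosome 7, 97412938 to 97417730) encodes Spot 14, which has no known catalytic activity and is induced with the lipogenic enzymes by carbohydrate and thyroid hormone. Its levels were 282, 314 and 327 CPM in control F1, against 83.8, 85.9 and 190 in FR F1. FR F1 replicates 1 and 2 were alike and FR F1 replicate 3 was higher than both, yet below each control library. The means were 308 ± 22.9 and 120 ± 60.7 CPM (SD, n = 3 in each), and the log2 fold change was -1.36 ± 0.30 (adjusted p = 0.0910), with an interval of the fold from 0.240 to 0.631. The test passed with DESeq2 (adjusted p = 0.00160) and without FR F1 replicate 3 (-1.85, adjusted p = 0.00908), and also with no filter on low counts. The adjusted p was 0.297 without FR F1 replicate 1. In the 16 other settings the log2 fold change lay between -1.85 and -1.15. Arntl, the clock activator gene, had 3.90, 8.11 and 4.99 CPM in control F1, against 56.8, 54.2 and 43.5 in FR F1. Its log2 fold change was 3.18 ± 0.29 (adjusted p = 0.00579). The hour of collection is not given, and any part of it or of Arntl in the Thrsp difference was not tested.

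**Figure D1:**
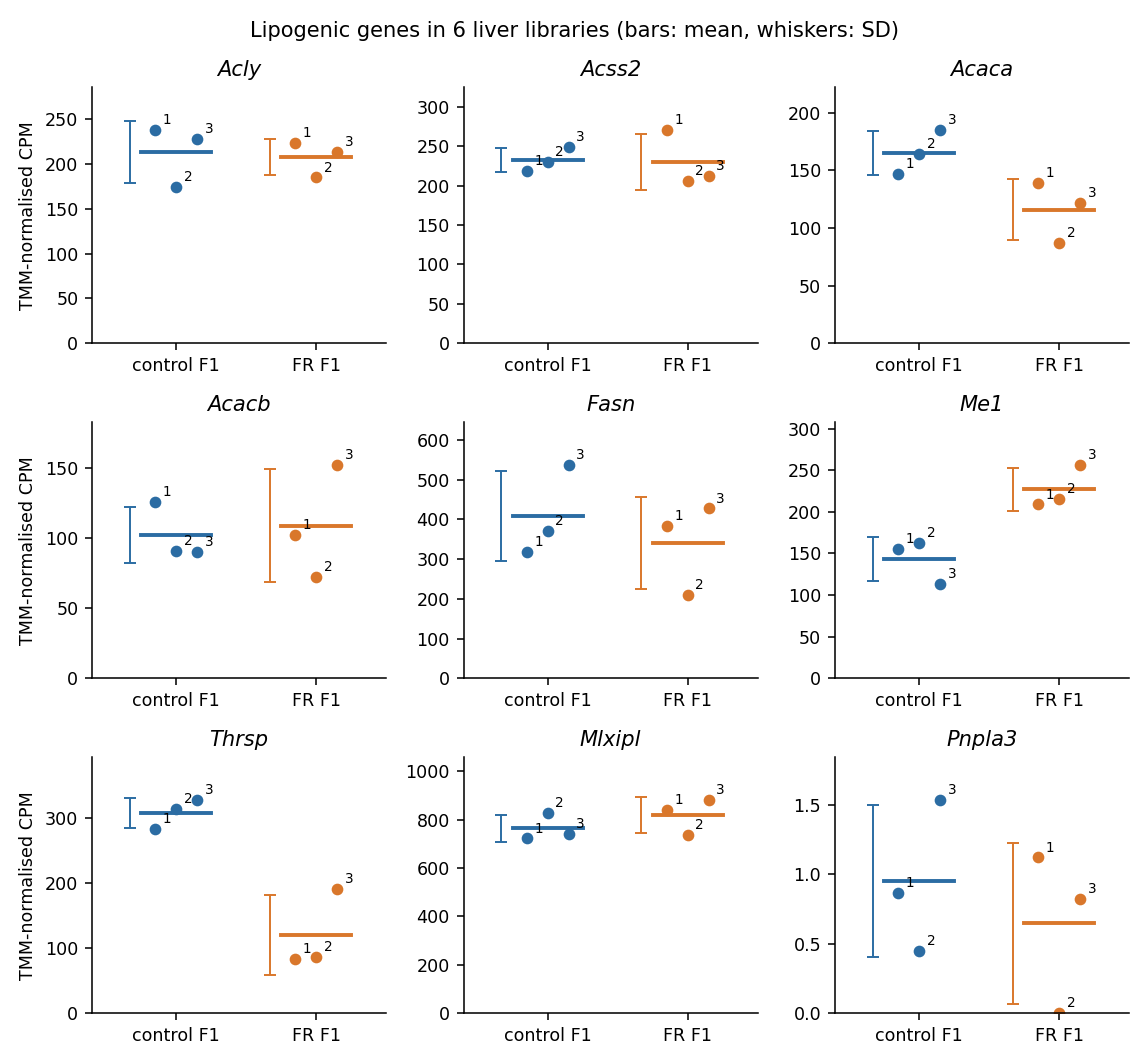
TMM-normalised CPM of the 9 genes in each of 6 liver libraries, with points numbered by replicate, bars for the group mean and whiskers for the SD of 3 libraries. FR F1 libraries lie wholly below control F1 in Thrsp (83.8 to 190 against 282 to 327 CPM) and Acaca and wholly above in Me1, and the groups overlap in the other 6 genes.

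Mlxipl (ENSMUSG00000005373.13, chromosome 5, 135089890 to 135138382) encodes ChREBP itself. Its levels were 722, 828 and 741 CPM in control F1, against 840, 736 and 881 in FR F1, overlapping between the groups. The log2 fold change was 0.10 ± 0.10 (adjusted p = 0.608), the narrowest interval of the 8 members, with a fold from 0.913 to 1.26. Gene counts add up the forms that start from different first exons, so the short induced form of ChREBP cannot be read from them. Mlxipl shares 235 of its 5538 exonic base pairs with a gene model on the other strand, which had 184 counts in all libraries together.

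Pnpla3 (ENSMUSG00000041653.5, chromosome 15, 84167837 to 84187236) encodes a lipid droplet protein, adiponutrin, and is a lipogenic target of both SREBP-1c and ChREBP. It had 2, 1 and 4 counts in control F1 and 3, 0 and 2 in FR F1. The group sums were 7 and 5 counts, with exact 95% Poisson intervals of 2.81 to 14.4 and 1.62 to 11.7 that cover counting error only. The 0 in FR F1 replicate 2 allows up to 1.11 CPM (3 counts). At these counts only a large difference in Pnpla3 could have been seen.

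Levels were also compared per length of the longest annotated transcript and scaled to the same total in every library. Thrsp and Mlxipl had the highest values of the 9 in control F1, at 557 ± 55.8 and 533 ± 37.2 (SD, n = 3). These lay above 98.7% and 98.6% of the tested genes or level with them. Any upper limit on counts per base pair would bear first on these 2 genes, and flattening of abundant genes was not tested. The rank and closeness of Thrsp and Mlxipl therefore describe the counts as deposited and may not hold for the RNA. Their libraries overlapped. Acss2 followed at 164 ± 15.8 and lay above every library of Acly (122 ± 20.9), Me1 (110 ± 17.5) and Fasn (103 ± 32.4), whose ranges overlapped one another. Acaca at 44.1 ± 6.42 stood above Acacb at 29.3 ± 5.29 in every control library, and Pnpla3 was last at 1.85 ± 1.12. In FR F1 the level of Mlxipl was 577 ± 47.3, that of Thrsp 217 ± 105, that of Me1 176 ± 16.1 and that of Acss2 163 ± 27.5, and the last 3 overlapped. Per length, Me1 was at 117, 123 and 90.1 in control F1 against 500, 558 and 612 for Thrsp, and in FR F1 at 165, 169 and 194 against 155, 158 and 339. Me1 was thus below Thrsp in each control library and above it in FR F1 replicates 1 and 2. That pair was chosen after its values were seen and was not tested.

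**Figure D2:**
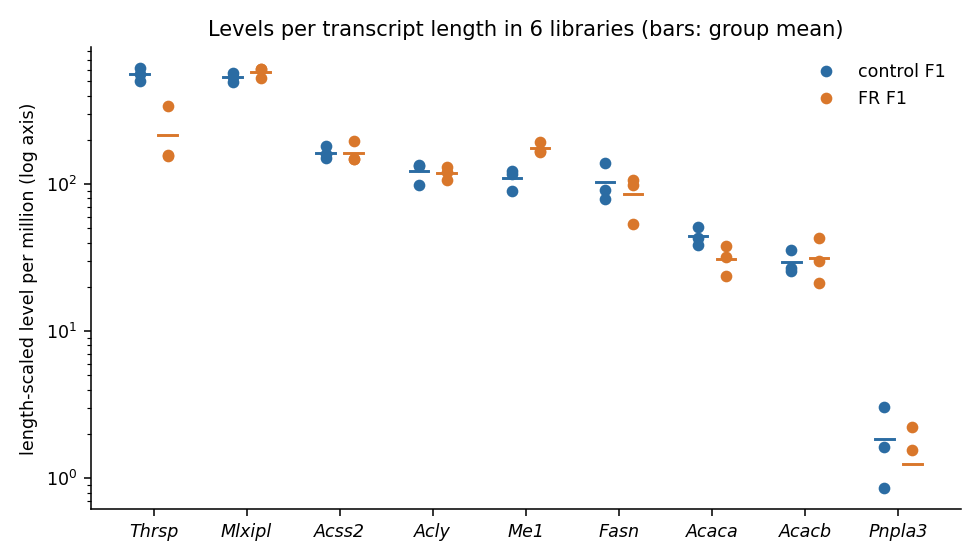
Level per length of the longest transcript, scaled to the same total in every library, on a log axis, with a point per library and a bar for the group mean, control F1 in blue and FR F1 in orange. The mean of Thrsp is 557 in control F1, beside 533 for Mlxipl, and 217 in FR F1, where replicate 3 (339) lies above every library of Me1 and Acss2, and the Pnpla3 library with 0 counts is not drawn.

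The spread between replicates was wide for some members. Among 5873 genes of mean level at least 50 CPM the median coefficient of variation (SD as a share of the mean of 3 libraries) was 13.6% in control F1 and 10.4% in FR F1. In FR F1 it was 50.7% for Thrsp, 37.0% for Acacb, 34.0% for Fasn and 22.7% for Acaca, above or level with 99.3%, 98.0%, 97.5% and 91.4% of those genes. In control F1 the same genes had 7.44%, 19.8%, 28.0% and 11.6%. Acly, Me1 and Mlxipl had 9.74%, 11.3% and 9.09% in FR F1. FR F1 replicate 2 had the lowest FR F1 level in 6 of the 8 members and the lowest of all 6 libraries in 4, which were Acss2, Acaca, Acacb and Fasn. FR F1 replicate 3 had the highest of all 6 in 3, which were Acacb, Me1 and Mlxipl. Summed over the 9 genes, the level was 2209, 2335 and 2473 CPM in control F1, against 2255, 1798 and 2456 in FR F1, with overlapping groups and the lowest value in FR F1 replicate 2.

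**Figure D3:**
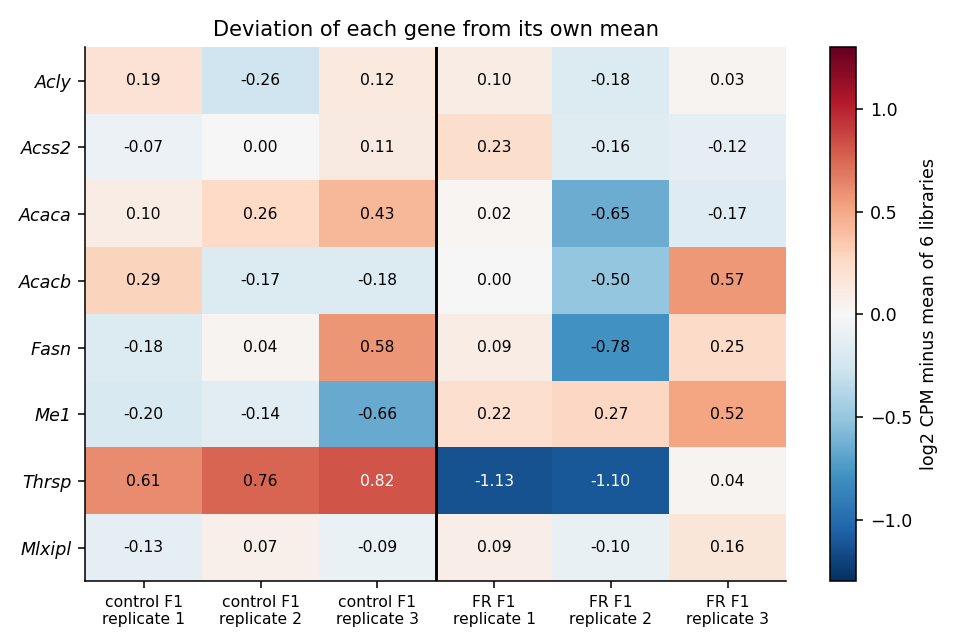
Log2 CPM of each tested member in each library minus the gene's mean over 6 libraries, with the value in each cell and a line between the control F1 and FR F1 libraries. Thrsp is above its mean by 0.61 to 0.82 in control F1 and below it by 1.13 and 1.10 in FR F1 replicates 1 and 2, and FR F1 replicate 2 is low for Fasn, Acaca and Acacb.

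Likeness of profiles was measured as the mean absolute difference between the deviations of 2 genes over the 6 libraries, in log2 units, as a description. Within the set, Fasn and Acaca were each other's nearest member (0.21), as were Mlxipl and Acss2 (0.13), and Acly was nearest to Acss2 (0.14). Thrsp was far from every member, the nearest being Acaca at 0.54, and Me1 was nearest to Mlxipl at 0.29. Outside the set, the genes nearest to Thrsp were Klf13 (0.14) and Pprc1 (0.17). Pprc1 fell in FR F1, from 61.0 ± 6.60 to 21.9 ± 7.26 CPM (SD, n = 3 in each; log2 fold change -1.48 ± 0.25, adjusted p = 0.0463), and Klf13 had -1.44 ± 0.39 (adjusted p = 0.139). Near to Me1 lay Oser1 (0.03), with a log2 fold change of 0.73 (adjusted p = 0.153). Those nearest to Acaca were Caskin2 (0.04) and Vwce (0.05), and those nearest to Fasn were Tpcn2 (0.07) and Adcy6 (0.08). Acacb had Tbc1d8 (0.08) and Poc1a (0.08) nearest, and Acly had Taf5l (0.04) and Parp16 (0.04). The nearest were Taf4 (0.03) and Paox (0.04) for Mlxipl and Slc38a9 (0.02) and Wdfy2 (0.03) for Acss2.

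Of 39 other genes of fatty acid synthesis and its close steps, such as citrate export, desaturation, elongation and triglyceride formation, 36 were tested, 0 were higher, 2 were lower and 34 did not pass, where 0.837% of all tested genes were called and 0.445% were lower. Their median log2 fold change was 0.02, with 19 positive and 17 negative, and the groups did not overlap in 44.4% of them (25.7% of all genes). Without adjustment 6 of the 36 were higher and 8 lower at a p under 0.05, against 17.9% of all tested genes in either direction. DESeq2 called 6, 3 of them higher, against 423 of 15359 genes. With limma-voom 3 were called, 1 of them higher, against 103 of 13022. Fads2, the delta-6 desaturase gene, fell from 283 ± 14.4 to 168 ± 2.81 CPM (log2 fold change -0.75 ± 0.10, adjusted p = 0.0300), with 288, 294 and 267 CPM in control F1, against 168, 171 and 165 in FR F1. Srebf1, the gene of SREBP-1, had 488, 442 and 614 CPM in control F1, against 288, 252 and 297 in FR F1 and fell by 0.88 ± 0.14 on the log2 scale (adjusted p = 0.0404). With the replicate block, without control F1 replicate 2, and without FR F1 replicate 1 or 2, 0 of the list passed, and the highest adjusted p under any setting was 0.168 for Fads2 and 0.190 for Srebf1. Insig2 and Insig1, whose products hold SREBP precursors in the endoplasmic reticulum, had 0.91 ± 0.17 (adjusted p = 0.0614) and 0.38 ± 0.11 (adjusted p = 0.146).

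Mid1ip1, the paralog of Thrsp whose product promotes polymerisation of acetyl-CoA carboxylase, had 73.3, 72.6 and 124 CPM in control F1, against 48.2, 45.7 and 52.1 in FR F1. As for Thrsp, every FR F1 library lay below the controls, and the log2 fold change was -0.89 ± 0.23 (adjusted p = 0.131). The lipase gene Pnpla2, of the same family as Pnpla3, had -0.56 ± 0.15 (adjusted p = 0.137). The acyl-CoA thioesterase gene Acot1 had 1.46 ± 0.33 (adjusted p = 0.0917), and the elongase gene Elovl3 had 0.85 ± 0.23 (adjusted p = 0.137). The delta-9 desaturase gene Scd1 had 783 ± 272 CPM in control F1, against 822 ± 137 in FR F1 (SD, n = 3 in each), and the citrate carrier gene Slc25a1 had 269 ± 9.96 and 272 ± 27.2 CPM.

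**Figure D4:**
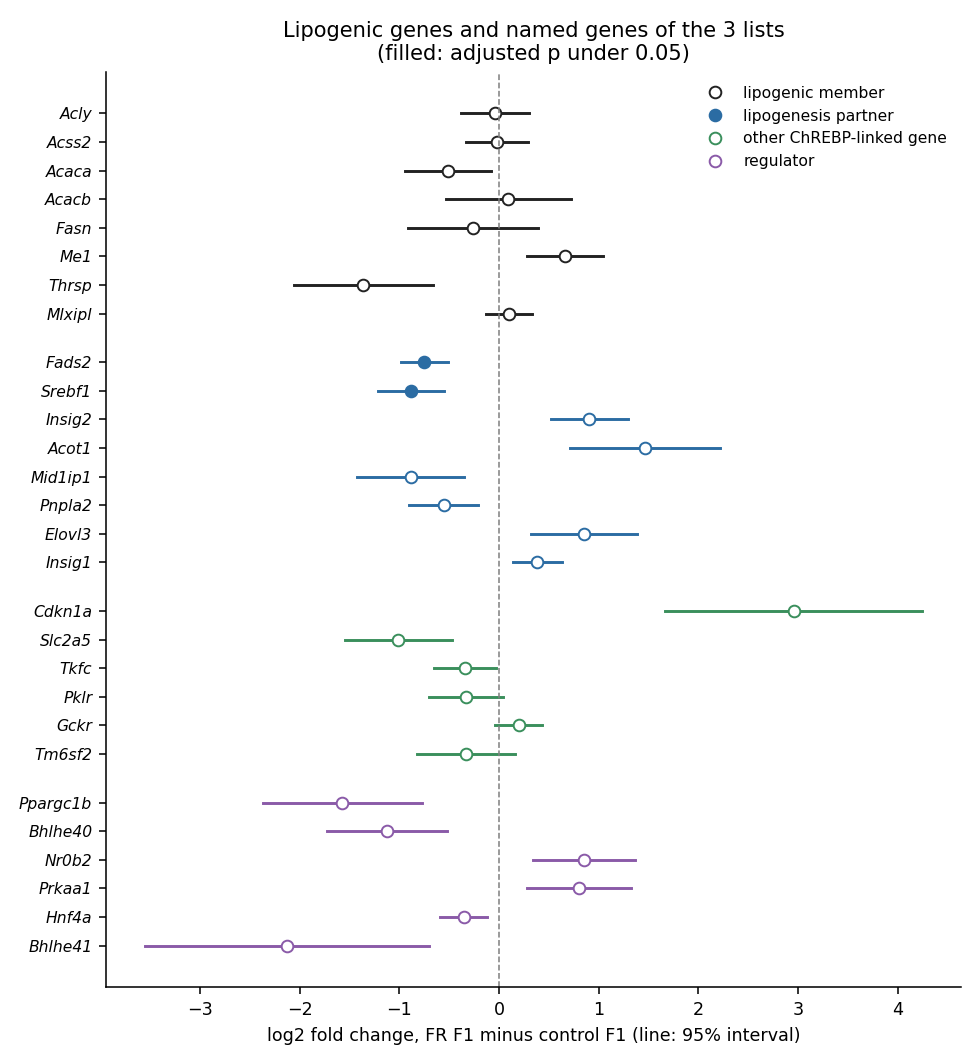
Log2 fold change, FR F1 minus control F1, of the 8 tested members and of the named genes of the 3 lists, with lines for the 95% interval and filled points for an adjusted p under 0.05. Fads2 (-0.75) and Srebf1 (-0.88) are the 2 filled points, and the intervals of Thrsp, Acaca and Me1 leave out 0 without passing after adjustment.

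Of 28 further genes linked to ChREBP, 0 passed (edgeR), where 0.837% of all tested genes were called. They cover glycolysis, fructose metabolism, the ChREBP partner Mlx and other targets. The groups did not overlap in 17.9% of them, against 25.7% of all genes. Without adjustment 3 of the 28 had a p under 0.05, against 17.9% of all tested genes. DESeq2 called 2, against 423 of 15359 genes, and limma-voom 0, against 103 of 13022. Log2 fold changes were negative in 20 of the 28 and in 6505 of all 13022 genes, with a median of -0.12 for the list. The fructose transporter gene Slc2a5 had 50.7, 36.1 and 61.8 CPM in control F1, against 21.7, 25.8 and 26.3 in FR F1, a log2 fold change of -1.01 ± 0.23 (adjusted p = 0.0990). Liver pyruvate kinase, Pklr, the textbook ChREBP target of glycolysis, had 229, 233 and 335 CPM in control F1, against 220, 202 and 210 in FR F1. Those groups did not overlap, control F1 replicate 3 stood apart above the rest, and the log2 fold change was -0.33 ± 0.16 (adjusted p = 0.316). The triokinase gene Tkfc had -0.35 ± 0.13 (adjusted p = 0.240), Tm6sf2, which acts in lipid loading of lipoproteins, -0.33 ± 0.21 (adjusted p = 0.431), and the glucokinase regulator gene Gckr 0.20 ± 0.10 (adjusted p = 0.348). Cdkn1a, the cell cycle inhibitor gene p21, had 2.60, 4.96 and 3.84 CPM in control F1, against 17.2, 17.7 and 54.6 in FR F1, a log2 fold change of 2.95 ± 0.56 (adjusted p = 0.0669). The sugar-induced gene Txnip had 0.33 ± 0.21 (adjusted p = 0.435), and the ketohexokinase gene Khk had -0.12 ± 0.11 (adjusted p = 0.561).

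Of 34 genes that act on lipogenic enzymes or their transcription, 0 passed (edgeR), where 0.837% of all tested genes were called. Without adjustment 11 of the 34 had a p under 0.05, 2 higher and 9 lower, against 17.9% of all tested genes. DESeq2 called 4, against 423 of 15359 genes, and limma-voom 0, against 103 of 13022. The median log2 fold change was -0.26, and 24 of the 34 were negative, against 6505 of all 13022 genes. This list, like the others, was chosen with earlier results of these data known, so its shares are descriptions only. Ppargc1b, a coactivator of SREBP-1 in liver, had 17.3, 23.0 and 34.9 CPM in control F1, against 6.36, 10.7 and 8.21 in FR F1, a log2 fold change of -1.57 ± 0.35 (adjusted p = 0.0894). The repressor genes Bhlhe40 and Bhlhe41, which also belong to the clock, had -1.12 ± 0.26 (adjusted p = 0.104) and -2.13 ± 0.62 (adjusted p = 0.153). Nr0b2, the gene of the corepressor SHP, had 0.85 ± 0.22 (adjusted p = 0.128), and Prkaa1, a catalytic subunit gene of the AMP-activated kinase that phosphorylates acetyl-CoA carboxylase, had 0.80 ± 0.23 (adjusted p = 0.146). Hnf4a, the gene of a hepatocyte transcription factor that works with ChREBP, had -0.35 ± 0.10 (adjusted p = 0.153). The LXR-alpha gene Nr1h3, an activator of Srebf1, had -0.24 ± 0.14 (adjusted p = 0.389).

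Any upper limit on counts per base pair in the deposited table would bear first on short and abundant genes, here Thrsp and Mlxipl. Alb, the albumin gene, had 1865 to 2315 counts in the libraries, beside 1666 to 2247 for Mlxipl, and Apoa1 had 865 to 918. Whether levels and fold changes of abundant genes are flattened in this table was not tested. Thrsp reached 0.465 to 0.609 counts per base pair of its longest transcript in control F1 and 0.160 to 0.331 in FR F1, and Mlxipl 0.460 to 0.620 over all libraries, while the other 7 members stayed at or below 0.201. With counts expanded to undo such an assumed limit, the log2 fold change of Thrsp was -1.58 (adjusted p = 0.0843). Leaving out 317 non-member genes that reached 0.5 counts per base pair gave -1.35 (adjusted p = 0.0920). The members were kept in that fit, so it bears on scaling and cannot show a limit on Thrsp itself.

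**Figure D5:**
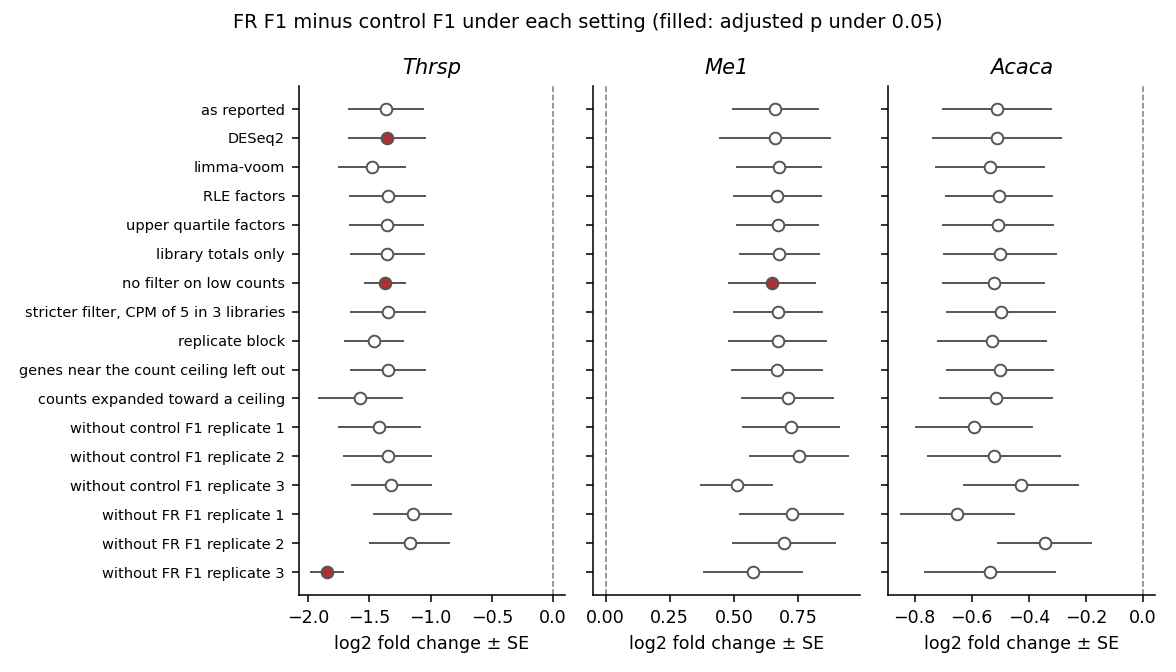
Log2 fold change with SE of Thrsp, Me1 and Acaca, FR F1 minus control F1, as reported and under 16 other settings, filled where the adjusted p is under 0.05. No point crosses 0, Thrsp is filled in 3 settings, Me1 in 1 and Acaca in 0.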

How the data were processed

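For polyadenylated RNA of 6 liver samples the authors deposited 1 table of raw counts, whole numbers for each gene. Tools named in the submitters' processing notes are DESeq2, HTSeq, STAR and StringTie, with build mm10 and no versions, roles or order. The sources used here give no annotation release, strand setting, treatment of shared reads or removal of duplicates. Groups and replicate numbers come from titles, and columns were matched through the code in each description.

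Symbols and mm10 positions come from GENCODE M21 (53620 of 53715 IDs matched), promoter sequences from RefSeq (GRCm38.p6). The test was that of edgeR 4.0.16 (R 4.3.3): filterByExpr (minimum count 10, minimum total 15), which kept 13022 genes, TMM, and two-sided quasi-likelihood F tests with Benjamini-Hochberg adjustment over all tested genes. SE is the absolute log2 fold change divided by the square root of F, and 95% intervals use the t distribution of the fit. The fit had a common dispersion of 0.0500 (biological coefficient of variation 22.4%). Replicates differed beyond counting noise (chi-square per degree of freedom 4.28 to 14.5). On simulated data 49 of 100 genes changed 2-fold and 94 of 100 changed 4-fold were recovered among 12780, with 8 false calls. Every simulated gene had the common dispersion, and the changed genes were drawn above a minimum total count. Recovery of genes of wider spread, such as Thrsp, may therefore be lower.

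Alternatives were DESeq2 1.42.0, limma-voom (limma 3.58.1), 3 scalings, 2 filters, a replicate block, each library omitted in turn, 2 treatments of a count ceiling and a threshold of 0.1. Members and lists were chosen with earlier results of these data known, so their shares beside those of all genes may reflect that choice. Named are all members, list genes past the threshold, up to 6 more per list by smallest p, 2 genes of nearest profile per member (1 of these is not reported here), and 8 further list genes (Thra, Thrb, Dio1, Scd1, Slc25a1, Txnip, Khk and Nr1h3) and Arntl, chosen after their values were seen. All 6 libraries entered the comparison.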

Additional observations from a re-analysis of the deposited data

How the results depend on the processing

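Whether the replicate numbers pair the samples could not be settled from these libraries. Deviations of same-numbered libraries from their group means had r of -0.02, 0.11 and 0.15 over genes. Of the 3 numbers, 2 matched best with their own, and so few correlations can neither show nor exclude a pairing. With the replicate block 21 genes were called in place of 109 (0 of the partner list in place of 2), and of the members 0 as before. The count over all genes was 423 of 15359 with DESeq2, 1251 of 30930 with no filter on low counts and 322 of 13022 at a threshold of 0.1. With a library left out it was 7 of 13272 (without FR F1 replicate 1) to 651 of 13469 (without control F1 replicate 1). Members called were 1 of 8 with DESeq2, 2 of 9 with no filter (Thrsp and Me1), 1 of 8 at a threshold of 0.1 (Thrsp), and 0 to 1 with a library left out (Thrsp without FR F1 replicate 3). The partner list had 6 of 38, 10 of 39 and 4 of 36 under those 3 settings and 0 to 5 with a library left out. The ChREBP-linked list had 2, 3 and 2 of 28, and the regulators 4, 7 and 1 of 34, with 0 to 2 for regulators with a library left out. Direction changed only with a library left out, and only in Acacb (-0.22 to 0.31), Acly (-0.17 to 0.042) and Acss2 (-0.14 to 0.052), none of which was called. In Fasn, Acaca, Me1, Thrsp and Mlxipl the direction was the same under all 16 refits. The causes of these shifts were not tested. Pnpla3, with 12 counts in all, had an adjusted p only in the fit with no filter on low counts and was not called there.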
